A study of Mus musculus with 36 samples.

Results

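The question examined here is whether CD4+ T cells that lack HP1α change the same genes as wild-type cells when they go from the naive to the activated state. For each gene, the change on activation in HP1a KO cells (Tconv minus naive) was set against the same change in HP1a WT cells, and the difference between these 2 changes is called the interaction below. The comparison used 12 of the 36 libraries of the series, replicates 1 to 3 of each of 4 groups: Naive HP1a WT, Naive HP1a KO, Tconv HP1a WT and Tconv HP1a KO. An interaction above 0 means that a gene ended relatively higher after activation in KO cells, either because it was silenced less or because it was induced more, and an interaction below 0 means the reverse.

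HP1α, encoded by Cbx5, is a chromatin protein that binds histone H3 methylated at lysine 9 and takes part in the compaction and silencing of heterochromatin. When a naive CD4+ T cell is activated it turns off genes of the resting state and turns on genes for division, metabolism, migration and cytokine production. Both arms of this switch involve chromatin, so a loss of a silencing protein can be looked for in genes that should be shut off as well as in genes that should be switched on.

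KO mice (Hp1a-/-) carried a deletion made in the whole animal with a CMV-cre transgene, and WT mice (Hp1a+/+) were sex-matched littermates from crosses of heterozygous parents, all 6 to 12 weeks old and on a mixed 129/Sv and C57BL/6 background. Naive cells were splenic CD4+ T cells purified by negative selection. Tconv (conventional T cells) were naive cells of the same genotypes that had been injected into irradiated C57BL/6 hosts together with C57BL/6 and B6D2F1 bone marrow, and that were sorted from the spleen 3 weeks later as donor-derived, Vβ6+ CD4+ cells, which recognise an antigen of the B6D2F1 cells. Activation, as the word is used here, therefore covers transfer, expansion in an irradiated host and selection for 1 T cell receptor chain as well as the response to antigen. The hosts were HP1α-sufficient. How many animals stood behind each library is not given in the sources used here, so that p-values measure the spread between these libraries.

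The 12 libraries held 37029519 to 63042245 counts (median 46615730), and 21218 to 23340 genes were detected in each. Levels are given as CPM, counts scaled to a common library size, and 3 counts, the floor used here, came to 0.0476 to 0.081 CPM, which covers counting error only. Both replicate 1 libraries of naive cells stood apart from the other 4 naive libraries. In 383 genes both lay above those 4 by a mean of over 1 on the log2(CPM + 1) scale, and in 97 genes both lay below by as much. The former included the T cell receptor-induced transcription factor genes Nr4a3 (68.2 CPM in WT and 72.4 CPM in KO replicate 1, against 2.69 to 3.23 CPM in replicates 2 and 3 of either genotype) and Fosl2 (77.0 and 74.1 CPM against 2.69 to 3.64 CPM). Since these libraries hold both genotypes, the results that follow are also given without them where that changed a call.

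Cbx5, the targeted gene, separated the genotypes in both conditions. In naive cells its level was 18.9, 24 and 25.2 CPM in the WT libraries and 12.5, 9.43 and 11.5 CPM in the KO libraries. In Tconv it was 28.9, 30.5 and 26.7 CPM in WT and 16.2, 16.4 and 14.1 CPM in KO. Every KO library was below every WT library (log2 differences of −1.03 in naive cells and −0.89 in Tconv), and transcripts of the gene were still counted in KO cells. The interaction of Cbx5 was 0.14 (95% interval −0.30 to 0.58, edgeR unadjusted p = 0.494), so that the difference between the genotypes was of like size before and after activation within this interval. The T cell receptor segment Trbv19, which encodes Vβ6, went from 38.1 to 42.8 CPM in naive WT and 36.6 to 42.7 CPM in naive KO libraries to 426 to 550 CPM and 325 to 433 CPM in the Tconv libraries. This matches the sort for Vβ6 in both genotypes, with an interaction of −0.22 (−0.61 to 0.17, unadjusted p = 0.249).

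Activation changed many genes in each genotype, and in most the change was alike in size. With a call set at an adjusted p under 0.05 and an absolute log2 fold change above 1, the quasi-likelihood test of edgeR, adjusted by Benjamini-Hochberg, called 3980 of 17038 genes in WT (23.4%), of which 2206 were higher (12.9%) and 1774 lower (10.4%) in Tconv. In KO cells it called 3512 genes (20.6%), 2208 higher (13.0%) and 1304 lower (7.65%). The comparisons share no library, and 2943 genes were called in both, which is 73.9% of the WT calls and 83.8% of the KO calls. Of these, 2935 changed in the same direction. A gene called in 1 genotype and not in the other is not thereby shown to differ between them, and the test of that difference is the interaction.

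Across the 9903 genes averaging 5 CPM or more, the change in KO cells followed that in WT cells, with a Pearson r of 0.967 and a Spearman rho of 0.942 over genes, which are not independent replicates. For 8402 of these genes (84.8%) the whole 95% interval of the interaction lay between −1 and 1, so that a difference of more than 2-fold between the genotypes lay outside the interval. The median width of the interval was 0.792. In 150 genes the estimate itself lay beyond 1 or −1.

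**Figure D1:**
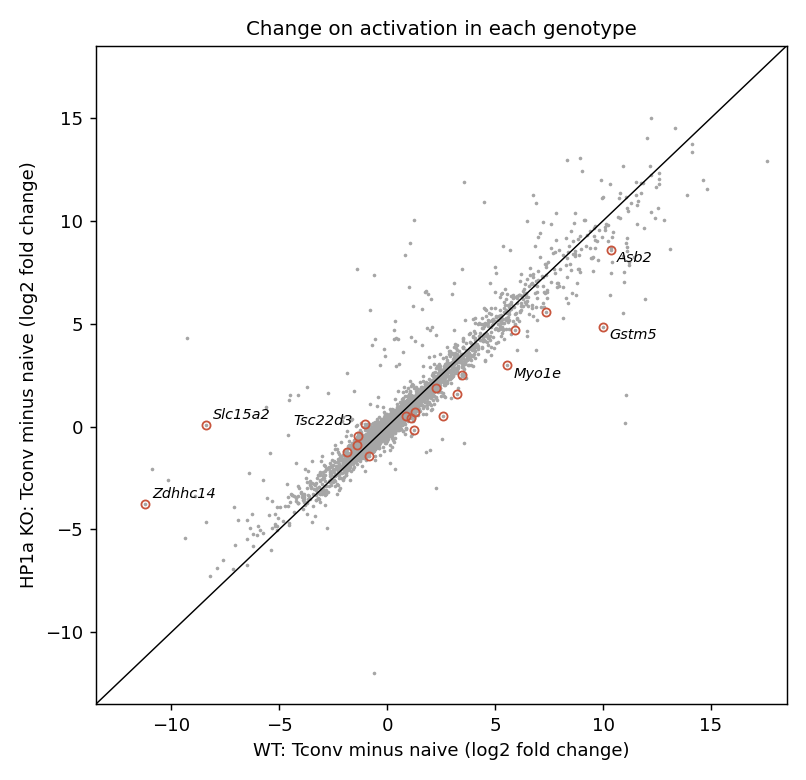
Change on activation in WT cells (x axis) and in HP1a KO cells (y axis), both as log2 fold changes of Tconv against naive cells, for 9903 genes averaging 5 CPM or more (grey points). The line marks equal change, red circles mark 20 named genes, and most points lie along the line while Slc15a2 and Zdhhc14 lie far above it.

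The interaction passed both thresholds for 1 gene of 17038 (0.00587%), Slc15a2. At an unadjusted p under 0.05 it took 834 genes (4.89%), 476 with an interaction above 0 and 358 below. DESeq2's Wald test on the same libraries called 69 genes, 44 higher and 25 lower, among them Slc15a2. Of these 69, 9 were T cell receptor segments, 6 belonged to the marker lists of other cell types described further on, and 20 had no count in any WT Tconv library. Further genes of myeloid or B cells that are on no such list, among them Pilra, Cd163 and Mef2c, were also among the 69, so that the 6 do not count all of that kind.

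Slc15a2 (ENSMUSG00000022899, GRCm39 chr16:36570475-36605334, minus strand) encodes PEPT2, a proton-coupled transporter of di- and tripeptides. Its level was 15.5, 17.7 and 11.3 CPM in naive WT cells and 15.7, 5.21 and 4.30 CPM in naive KO cells. In Tconv it was 0.0277, 0.0427 and 0.055 CPM in WT and 9.11, 10.1 and 7.48 CPM in KO. The naive groups overlapped, while the Tconv groups were far apart: the 3 WT libraries held 5 counts together and the 3 KO libraries 1266 counts, a ratio of 207 (exact 95% interval 88.7 to 640, which covers counting error only).

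Slc15a2 was thus close to absent in WT Tconv, unlike in naive WT cells, and stayed within the naive KO range in KO Tconv. The log2 change was −8.38 in WT (edgeR adjusted p = 1.15e-06) and 0.08 in KO (adjusted p = 0.891). The interaction was 8.46 (SE 0.78, 95% interval 6.76 to 10.16, edgeR adjusted p = 0.0032). It remained past the thresholds under DESeq2 (8.53, adjusted p = 1.43e-18) and without replicate 1 of naive cells (9.24, edgeR adjusted p = 1.22e-05), but without replicate 2 of WT Tconv its adjusted p was 0.0517 at an estimate of 8.48. In the 12 fits that left out 1 library each the estimate ran from 8.14 to 9.28 and the adjusted p from 3.52e-06 to 0.0517.

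The same gene was also compared in libraries that the interaction does not use. In Tconv of the HP1a line recovered from hosts that had also received regulatory T cells (Treg), it stood at 0.507, 1.14 and 0.495 CPM in WT and at 15.4, 11.2 and 11.6 CPM in KO, with no overlap (log2 difference 4.14, edgeR adjusted p = 0.0328). In this comparison 20 of 16256 genes passed both thresholds (0.123%), and for 12.1% the unadjusted p was under 0.05. Slc15a2 was therefore low in all 6 WT libraries of transferred cells and high in all 6 KO libraries.

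In the HP1g line, in which floxed Hp1g, the gene for the related protein HP1γ, is deleted in T cells by a Cd4-cre transgene and WT are littermates, Slc15a2 varied between libraries of 1 group. Its WT Tconv libraries held 0.135, 6.34 and 7.26 CPM, and its WT naive libraries 6.14, 6.72 and 0 CPM. The KO libraries of that line held 3.63 to 10.8 CPM in naive cells and 5.07 to 10.3 CPM in Tconv. A level near 0 thus occurred in 1 of 3 libraries of naive and of activated HP1g WT cells, including cells that were never activated, so that near absence of the transcript was neither limited to the HP1a line nor to Tconv. Whether mice of this mixed background differ at the locus was not tested. The interaction in the HP1g line was 0.08 (unadjusted p = 0.967), and the difference between the interactions of the lines was 8.45 (SE 2.40) with an edgeR adjusted p of 0.571, which did not pass.

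A long non-coding RNA gene annotated within Slc15a2 on the same strand (ENSMUSG00000120777, chr16:36585467-36590580) followed a like pattern at smaller size, as described after its values were seen. It fell from 45.8, 28.4 and 24.6 CPM in naive WT to 9.20, 9.18 and 8.47 CPM in Tconv WT. In KO it was 37.7, 15.2 and 13.4 CPM in naive cells and 21.5, 17.4 and 17.4 CPM in Tconv, above every WT Tconv library. Its interaction was 1.64 (edgeR adjusted p = 0.739) with all 12 libraries and 1.96 (adjusted p = 0.00733) without replicate 1 of naive cells. With the replicate number as a block in naive cells it was 1.75 (adjusted p = 0.0188), but only replicate 1 was seen to pair there. Reads of overlapping genes on 1 strand cannot be told apart with certainty, so these genes are not 2 independent observations.

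**Figure D2:**
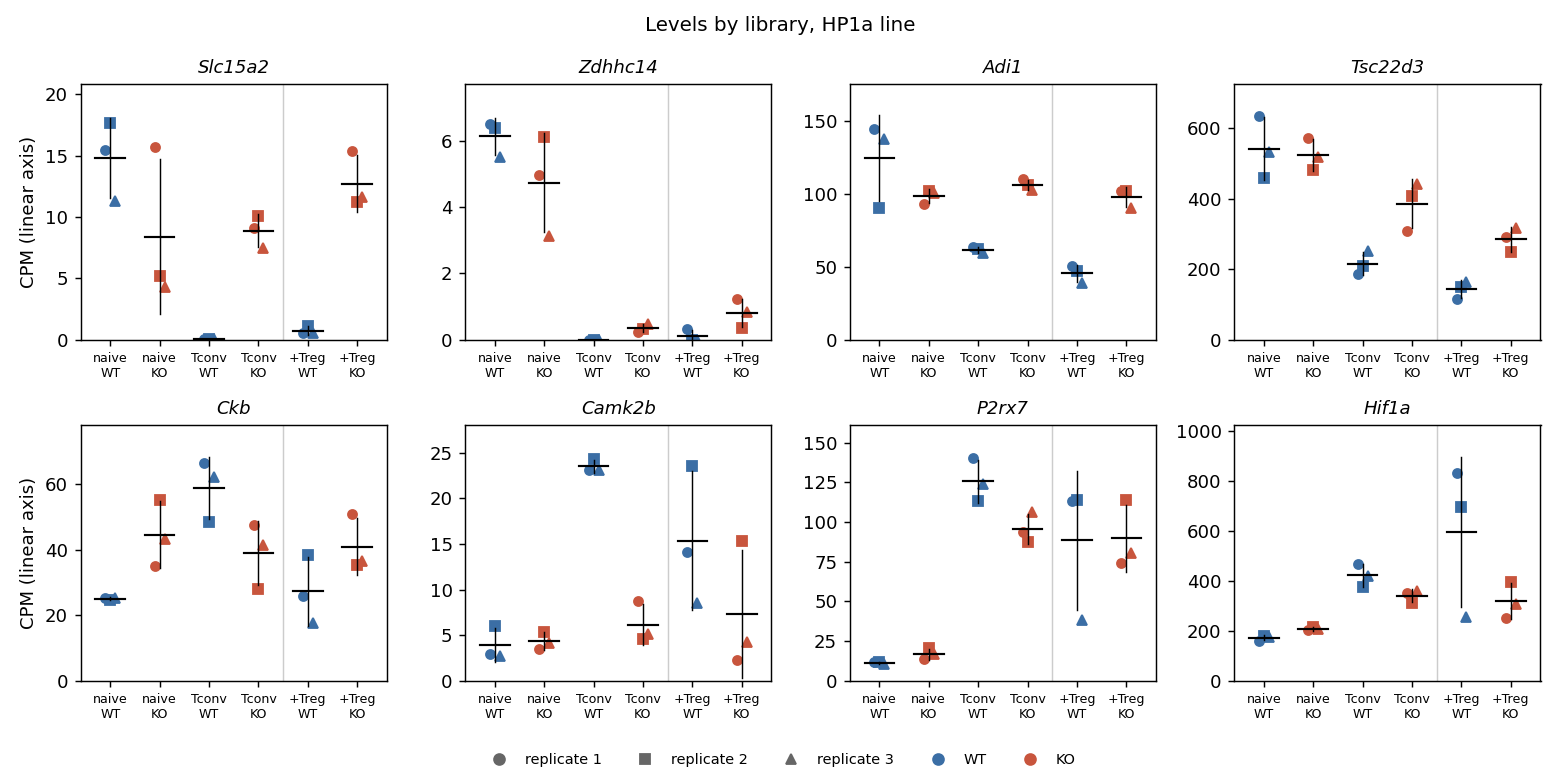
Levels in CPM (linear axes) of 8 genes in each library of the HP1a line, with naive cells and Tconv on the left of the grey line and Tconv from hosts given Treg (+Treg) on the right. Symbols mark replicates, horizontal bars group means and vertical bars 1 SD, cut at 0; Slc15a2 and Adi1 separate KO from WT after transfer with and without Treg, whereas Ckb separates them in opposite directions in naive cells and Tconv.

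As fewer than 20 genes were called, the description was filled up to 20 genes averaging 5 CPM or more in a group, in the order of the unadjusted p of the interaction. The other 19 did not pass the adjusted threshold in edgeR. DESeq2 called 9 of these 19, namely Zdhhc14, Adi1 (adjusted p = 0.00069), Ckb (0.00165), Camk2b (0.00268), Osgin1, Gstm5, Bspry, Myo1e and Podnl1. Of the 20, 6 had an interaction above 0 and 14 below. In all 20 the KO minus WT difference had opposite signs in naive cells and in Tconv, which follows in part from ranking genes by a difference of differences, and the larger difference was in Tconv for 14. The groups did not overlap in Tconv for 19 of the 20, against 14.9% of all genes, and in naive cells for 12, against 6.24%. The ranking itself favours such genes.

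Zdhhc14 (chr17:5541903-5805539), which encodes a palmitoyltransferase of the ZDHHC family, was lower in WT than in KO Tconv of the HP1a line. It held 6.51, 6.4 and 5.5 CPM in naive WT and 4.97, 6.11 and 3.14 CPM in naive KO. No read was counted in the 3 WT Tconv libraries, while the KO Tconv libraries held 0.219, 0.329 and 0.468 CPM, or 52 counts. Against a floor of 3 counts over the WT group, the KO level was at least 14.2-fold higher. The gene fell in both genotypes, and KO Tconv kept a small remainder. Its interaction did not pass in edgeR (adjusted p = 0.0806) and was called by DESeq2 (adjusted p = 0.000546). In the fits that left out 1 library each, the edgeR adjusted p ran from 0.0566 to 0.303. KO against WT within Tconv was called (edgeR adjusted p = 0.0345). With Treg it stood at 0.325, 0 and 0 CPM in WT and 1.21, 0.362 and 0.841 CPM in KO. Tconv of the HP1g line held 0.0604 to 0.968 CPM in WT (mean 0.387) and 0.193 to 0.838 CPM in KO. The remainder in HP1a KO Tconv (mean 0.339 CPM) thus lay within the range of HP1g WT Tconv. The log2 change on activation was −3.77 in HP1a KO and −3.69 in HP1g WT.

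Adi1 (chr12:28725183-28797609), an enzyme gene of the methionine salvage pathway, showed the next lowest p. Its level was 145, 90.7 and 138 CPM in naive WT, 93.3, 102 and 101 CPM in naive KO, 63.6, 61.9 and 59.5 CPM in Tconv WT and 110, 106 and 103 CPM in Tconv KO. Its interaction was 1.12 (SE 0.19, edgeR adjusted p = 0.322), and without replicate 2 of naive WT, the lowest of its group, it was 1.31 (adjusted p = 0.000475). Over the 12 fits that left out 1 library it ran from 1.0 to 1.31, with adjusted p from 0.000475 to 0.997. Among cells recovered with Treg it was 50.6, 47.0 and 39.1 CPM in WT and 102, 102 and 90.2 CPM in KO, again without overlap (adjusted p = 0.0579).

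Rps7-ps3, a processed pseudogene on the X chromosome, had a pattern like that of Adi1, as was noticed after its values were seen (interaction 4.35, adjusted p = 0.322). It held 76.5, 10.7 and 59.1 CPM in naive WT and 13.1, 12.2 and 11.6 CPM in naive KO. In Tconv it held 8.01, 7.45 and 6.62 CPM in WT and 40.0, 37.7 and 36.2 CPM in KO. Its parent gene Rps7, which encodes a ribosomal protein, lies 38.9 kb from Adi1 on chromosome 12, and reads of the gene and of its copy cannot be assigned with certainty. Rps7 itself was at 388 to 450 CPM in Tconv WT and 374 to 416 CPM in Tconv KO, overlapping. Thus the naive WT library that was low in 1 of the 2 transcripts was low in the other as well.

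The other genes with an interaction above 0 had lower levels in Tconv than in naive cells in both genotypes, with a smaller drop in KO. Tsc22d3, which encodes the glucocorticoid-induced leucine zipper protein GILZ, went from 635, 458 and 534 CPM to 187, 208 and 252 CPM in WT and from 572, 483 and 518 CPM to 307, 409 and 442 CPM in KO. Its Tconv groups did not overlap, and its interaction was 0.89 (0.40 to 1.37). With Treg the level was 114 to 164 CPM in WT and 248 to 318 CPM in KO, also without overlap (log2 difference 1.0, adjusted p = 0.091). Kif1b, a kinesin motor gene, had an interaction of 0.61 and Rev3l, the catalytic subunit of DNA polymerase zeta, 0.51. Kif1b fell from 102 to 132 CPM to 29.7 to 35.8 CPM in WT and from 112 to 119 CPM to 48.1 to 49.3 CPM in KO.

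Of the 14 genes with an interaction below 0, 12 passed both thresholds as higher in Tconv than in naive cells in WT. In all 14 the KO mean lay above WT in naive cells and below it in Tconv. Ckb, the brain-type creatine kinase, is the clearest case of a crossing: 25.3, 24.6 and 25.4 CPM in naive WT, 34.9, 55.2 and 43.4 CPM in naive KO, 66.4, 48.3 and 62.1 CPM in Tconv WT and 47.4, 28.1 and 41.3 CPM in Tconv KO. It rose in WT (log2 1.23, edgeR adjusted p = 0.000369), with −0.19 in KO (adjusted p = 0.477), and its interaction was −1.42 (−2.04 to −0.81, adjusted p = 0.548). Camk2b, a subunit of a calcium and calmodulin-dependent kinase, overlapped between the genotypes in naive cells and not in Tconv. It stood at 2.71 to 6.05 CPM in naive WT and 3.51 to 5.40 CPM in naive KO, then at 23.1, 24.3 and 23.1 CPM in Tconv WT and 8.72, 4.57 and 5.12 CPM in Tconv KO (interaction −2.10, −3.09 to −1.10).

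P2rx7, an ATP-gated ion channel gene, rose in both genotypes. It reached 140, 113 and 124 CPM in Tconv WT and 93.4, 87.6 and 106 CPM in Tconv KO, from 10.8 to 11.6 CPM and 13.4 to 20.4 CPM in naive cells. The genotypes did not overlap in either condition, and the interaction was −0.97 (−1.39 to −0.54). Hif1a, the oxygen-regulated subunit of HIF-1, went from 161, 180 and 177 CPM to 469, 377 and 420 CPM in WT and from 202, 214 and 206 CPM to 351, 310 and 361 CPM in KO, with an interaction of −0.57 (−0.85 to −0.29). In each of these genes KO cells started higher and ended lower than WT cells.

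The remaining genes of this group were Osgin1 (interaction −1.64), Gstm5 (−5.15), Mbd2 (−0.70), Epsti1 (−0.41), Bspry (−1.76), Fmnl3 (−0.60), Myo1e (−2.60), Podnl1 (−1.24), Surf4 (−0.36) and Asb2 (−1.78). Mbd2 encodes a protein that binds methylated DNA, and its level went from 140 to 186 CPM to 327 to 375 CPM in WT and from 185 to 217 CPM to 239 to 290 CPM in KO. Asb2, a component of a ubiquitin ligase, rose from at most 0.132 CPM to a mean of 125 ± 16.3 CPM in WT and from at most 0.261 CPM to 84.2 ± 18.4 CPM in KO (SD, n = 3). Gstm5, a glutathione transferase gene, has an estimate that rests on naive levels near the floor. It was at 0 to 0.0188 CPM in naive WT and 0.0464 to 0.190 CPM in naive KO, against 6.70 to 9.92 CPM and 1.32 to 5.39 CPM in Tconv. Fmnl3, a formin gene that acts on actin, was lower in Tconv than in naive cells in both genotypes (log2 −0.83 in WT and −1.43 in KO).

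**Figure D3:**
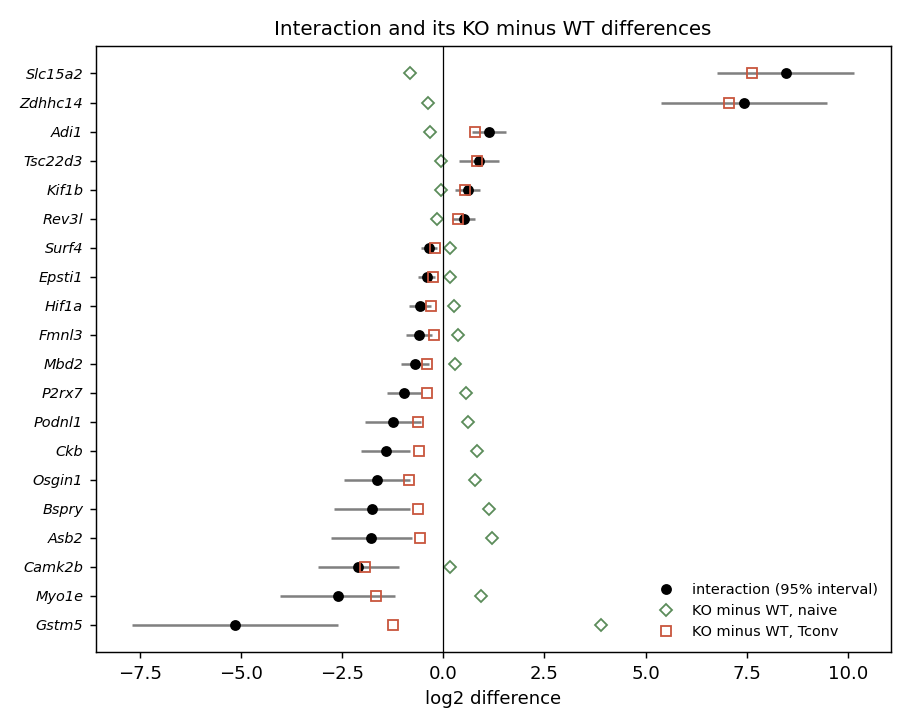
Interaction of the 20 genes on the log2 scale (black points with 95% intervals, not adjusted for the number of genes) beside the KO minus WT difference in naive cells (green diamonds) and in Tconv (red squares). Slc15a2 and Zdhhc14 sit between 7.43 and 8.46, Gstm5 lies lowest at −5.15, and in each gene the naive and Tconv differences have opposite signs.

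The 20 genes were then looked at in libraries that did not serve to choose them. In the HP1g line 1 of the 20, Myo1e, had an unadjusted interaction p under 0.05 in edgeR (interaction −1.25), where 7.89% of 17024 genes had one and 4 were called (0.0235%). The test of the difference between the lines called none of the 20 and had an unadjusted p under 0.05 for 8, against 6.74% of 18027 genes, but it shares the HP1a libraries with the ranking. It called 1 gene in all (0.00555%). KO against WT with Treg had the same sign as KO against WT without Treg for 12 of the 20, with an unadjusted p under 0.05 for 5 (12.1% of all genes) and an adjusted p under 0.05 for Slc15a2.

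Within a condition, the count of genes that separated KO from WT differed between tools, with 16 in naive cells and 233 in Tconv by DESeq2. By edgeR, in naive cells 1 gene passed both thresholds (0.00587%), and for 2.24% of genes the unadjusted p was under 0.05. That gene was the long non-coding RNA 1700030C10Rik (ENSMUSG00000099759), at 1.19, 1.05 and 1.95 CPM in WT and 9.33, 13.7 and 12.4 CPM in KO. In Tconv it stood at 0.416, 0.555 and 0.357 CPM in WT and 18.4, 16.0 and 11.3 CPM in KO, with an interaction of 2.01 that did not pass (adjusted p = 0.593). With the replicate number as a block the count in naive cells was 1 as well. In Tconv 4 genes passed (0.0235%), all higher in KO, and for 7.44% the unadjusted p was under 0.05. These were Slc15a2, Zdhhc14, 1700030C10Rik, which was higher in KO in both conditions, and the receptor segment Trav15-2-dv6-2. Without replicate 2 of KO Tconv the count in Tconv was 138, of which 135 were higher in KO.

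Most genes of the resting T cell fell in both genotypes. Of 20 such genes 13 fell in WT and 14 in KO, 13 of them in both, and 1 rose, where 10.4% of all genes fell in WT and 7.65% in KO, and the median interaction was 0.15, beside 0.00 over all genes tested. Igfbp4, a gene of naive cells that encodes a growth factor-binding protein, fell from 1031, 1145 and 1148 CPM in WT and 1037, 1282 and 1262 CPM in KO to 18.6, 21.1 and 16.2 CPM in WT and 43.1, 20.9 and 45.7 CPM in KO. Its interaction was 0.87 (unadjusted p = 0.0218) and did not pass adjustment. Replicates 1 and 3 of KO Tconv lay above every WT Tconv library, and replicate 2 lay within the WT range.

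To look at falling genes with a choice that uses none of these libraries, the 120 genes with at least 5 CPM in naive HP1g WT cells that fell on activation by more than 3 log2 units in HP1g WT (adjusted p under 0.05) were taken. In the HP1a line 119 of them fell in WT and 118 in KO. Their median log2 change was −3.75 in WT and −3.40 in KO, and the median interaction was 0.33, with 86 of 120 above 0. At an unadjusted p under 0.05, 24 had an interaction above 0 and 3 below, which is 22.5% against 4.89% of all genes. The lean was smaller with a limit of 1 log2 unit, which took 789 genes. Their median was 0.10, with 56 above 0 and 12 below at that p (8.62%). None of the 120 passed adjustment in edgeR, and DESeq2 called 3 (Zdhhc14, Ttc28 and Slc25a27). Below 0 the lowest p was that of Zcchc12 (interaction −4.60, edgeR unadjusted p = 0.00106). Its mean level was 0.216 CPM in Tconv WT and 0.0054 CPM in Tconv KO. The set holds 14 T cell receptor beta segments other than that of the sorted Vβ6. Without them, as chosen after the data were seen, the other 106 genes had a median of 0.30. Of these, 21 were above and 3 below 0 at that p (22.6%). In the HP1g line the 120 genes had a median interaction of 0.43, beside 0.08 over all genes tested. The HP1g WT libraries that chose the set are part of that interaction, so it is no independent comparison.

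The size of the shift in the HP1a line depended on single libraries. Without replicate 3 of KO Tconv, the library richest in markers of other cells, the median was 0.20 with 15 genes above and 6 below at that p. Without replicate 2 of WT Tconv it was 0.55, with 36 above and 2 below, and without replicate 1 of naive cells of both genotypes 0.33, with 21 and 4. After Zdhhc14, the gene of this set with an interaction above 0 and the lowest p was Slc25a27, a mitochondrial carrier gene, which fell from 12.9 to 16.4 CPM to 0.970, 1.13 and 1.15 CPM in WT and from 11.5 to 12.6 CPM to 3.04, 1.44 and 1.97 CPM in KO (1.28, unadjusted p = 0.00262). Ttc28 fell to 0.859, 1.17 and 0.495 CPM in WT and 1.75, 1.51 and 1.79 CPM in KO, from 25.1 to 26.6 CPM in naive cells (1.05). Atp1b1, a subunit of the sodium pump, fell to 1.69, 1.17 and 1.18 CPM in WT and 2.55, 2 and 4.88 CPM in KO (1.26). In each of these 3 genes every KO Tconv library lay above every WT one, and both stayed far below the naive level. Of all genes 14.9% did not overlap in Tconv, in either direction. With Treg, mean levels in KO and WT were 3.54 and 4.38 CPM for Slc25a27 and 3.76 and 3.22 CPM for Ttc28. For Atp1b1 they were 5.77 and 18.5 CPM, lower in KO (log2 difference −1.69, edgeR unadjusted p = 0.00605). In the HP1g line the interaction of Atp1b1 was 1.155 (edgeR unadjusted p = 0.000473).

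Induced genes were less uniform. The 543 genes that rose by more than 3 log2 units in HP1g WT had a median change of 5.06 in WT and 5.03 in KO cells of the HP1a line. Their median interaction was −0.11, with 25 above 0 and 42 below at an unadjusted p under 0.05, or 12.3% against 4.89% of all genes. Without replicate 1 of naive KO the median was 0.03.

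Effector genes were switched on in KO cells. Of 30 effector and memory genes 28 rose in WT and 29 in KO, with a median interaction of −0.16. Of all genes 12.9% rose in WT and 13.0% in KO. Of 16 Th1 genes 14 rose in each genotype, and 3 (18.8%, against 4.89% of all genes) had an unadjusted interaction p under 0.05, all below 0. Ifng, the defining Th1 cytokine, rose from at most 0.0941 CPM to 475, 353 and 458 CPM in WT and from at most 0.395 CPM to 288, 257 and 259 CPM in KO. Its Tconv groups did not overlap, but its interaction of −1.92 (unadjusted p = 0.0465) also rests on naive levels near the floor. Il12rb1, a chain of the IL-12 receptor, rose from 1.45 to 2.07 CPM to 97.3, 101 and 66.7 CPM in WT and from 2.55 to 3.68 CPM to 76.9, 86.1 and 79.8 CPM in KO (−0.87, unadjusted p = 0.00649). Stat4, which signals downstream of that receptor, had an interaction of −0.41 (unadjusted p = 0.0371). No Th1 gene was called.

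In a Th1 list of 75 genes curated by the study 70 were tested, with a median interaction of −0.11. At an unadjusted p under 0.05, 1 was above 0 and 7 below (11.4%, against 4.89% of all genes). The study's exhaustion list (97 of 104 tested) had 2 above and 2 below at that p (4.12%), with a median of −0.04. Follicular helper genes had 2 of 11 below 0 at that p (P2rx7 and Cxcr5). Th17 genes (14 tested), Th2 genes (9) and regulatory T cell markers (12) had none at that p, with medians of −0.03, 0.12 and −0.03.

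The lists of glycolysis genes and of CD4 T cell markers had medians a little below 0. Of 22 glycolysis genes 4 (18.2%, against 4.89% of all genes) had an unadjusted p under 0.05, all below 0 (Hif1a, Slc2a3, Pkm and Hk1), with a median of −0.17. Slc2a3, a glucose transporter gene, rose from 51.6 to 60.9 CPM to 237, 213 and 249 CPM in WT and from 53.7 to 61.2 CPM to 182, 173 and 193 CPM in KO (−0.37, unadjusted p = 0.012). Of 16 CD4 T cell markers 4 had such a p, all below 0 (Lck, Trac, Cd4 and Cd3g), and 15 of 16 estimates were below 0 with a median of −0.18. The summed level of these 16 markers was 10660 to 11490 CPM in naive WT, 11450 to 12350 CPM in naive KO, 12350 to 12990 CPM in Tconv WT and 11500 to 11520 CPM in Tconv KO. The KO Tconv libraries are also those with the highest sums of macrophage and dendritic cell markers (316 to 1331 CPM), whose part in this was not tested.

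Cytokine receptor and SOCS genes had 2 above (Il6ra and Tgfbr3) and 2 below 0 (Il12rb1 and Il2rb) of 26 at that p, with a median of −0.02. Of 30 chemokine and trafficking receptor genes Cxcr5, Itgb2 and Itga1 were below 0 at that p, and the list's median was −0.15. Cytokine and chemokine genes had 3 of 29 below 0 at that p (Ltb, Tnf and Ifng), with a median of −0.05. Inhibitory receptor genes had 1 above and 1 below of 17 at that p (Pilra, a gene of myeloid cells, and Vsir), with a median of −0.05. Cell cycle genes (36), interferon-stimulated genes (31), AP-1 and T cell receptor-induced factors (22) and handling-related immediate early and heat shock genes (20) had none, with medians of 0.02, 0.15, −0.10 and 0.01. Of 36 cell cycle genes 28 rose in WT and 27 in KO, where 12.9% and 13.0% of all genes rose. An unadjusted interaction p under 0.05 was seen in 4.89% of all genes.

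Genes of the heterochromatin machinery and genes that are silent in most tissues were looked at as well. Of 27 genes of HP1 proteins and their partners in H3K9 methylation, 1 had an unadjusted p under 0.05, Resf1, a partner of the methyltransferase SETDB1. It was at 279, 284 and 275 CPM in Tconv WT and 379, 325 and 323 CPM in Tconv KO (interaction 0.36, unadjusted p = 0.014), and the list's median was 0.11. Of 32 germ line and methylation-silenced genes 10 had enough counts to be tested, as had 14 of 31 imprinted genes, and none had an unadjusted p under 0.05 (medians 0.08 and 0.24). The genes left untested had too few counts to pass the low-count filter, so the edgeR test gives no answer for them. Of 112 T cell receptor alpha segments 15 were above and 15 below 0 at that p (26.8%, against 4.89% of all genes), with a median of −0.05.

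**Figure D4:**
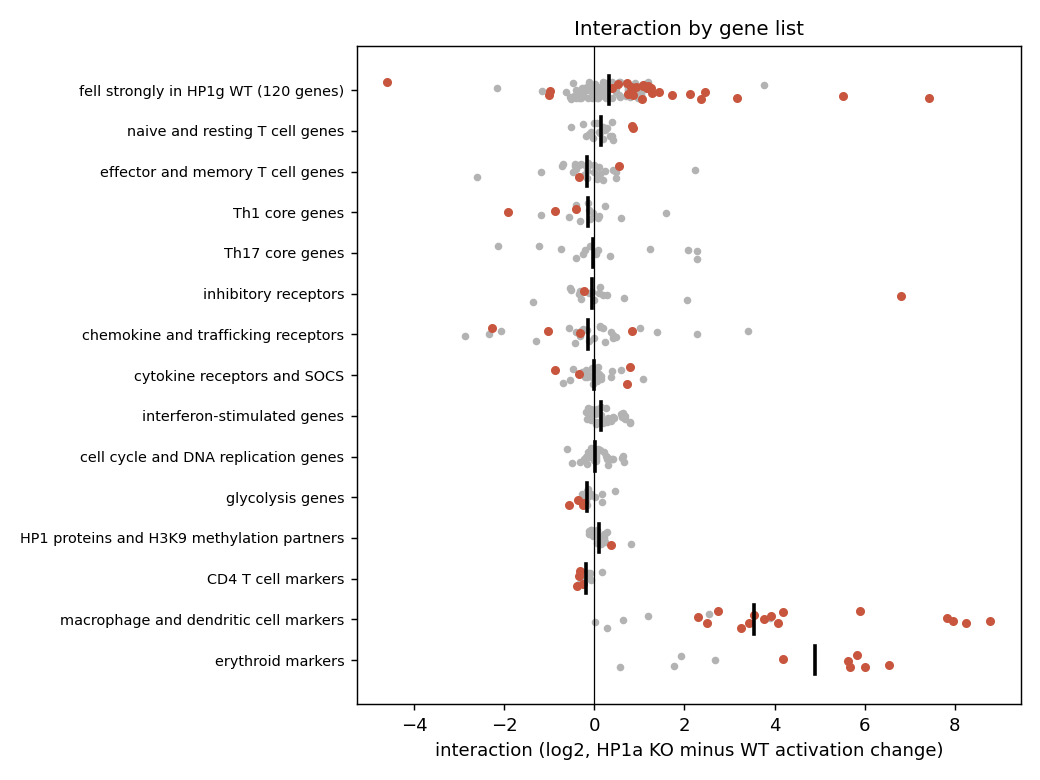
Interaction of each tested gene (points, log2 scale) by gene list, with the list's median as a black bar and genes with an unadjusted p under 0.05 in red. T cell lists centre near 0, the 120 genes that fell strongly on activation in HP1g WT lean to the right (median 0.33), and markers of macrophages, dendritic cells and erythroid cells lie far to the right (medians 3.54 and 4.90).

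Markers of some other cell types moved with the groups. Of 21 tested macrophage and dendritic cell markers 15 had an unadjusted p under 0.05 (71.4%, against 4.89% of all genes), all above 0. Their median interaction was 3.54. Of 10 erythroid markers 6 had such a p (60%), with a median of 4.90. The 22 macrophage and dendritic cell markers summed to 239 to 257 CPM in naive WT, 232 to 272 CPM in naive KO and 263 to 275 CPM in Tconv WT, but to 500, 316 and 1331 CPM in Tconv KO. The 11 erythroid markers summed to 2.41 to 3.96 CPM in Tconv WT and to 98.0, 27.9 and 807 CPM in Tconv KO, against 49.4 to 193 CPM in naive cells. In both lists replicate 3 of KO Tconv was the highest and replicate 2 the lowest of its group.

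A marker gene of each kind, Adgre1 and Hbb-bs, was lower in every WT Tconv library than in every KO Tconv library. Adgre1, which encodes the macrophage marker F4/80, was at 0.249, 0.064 and 0.110 CPM in WT and 3.89, 0.353 and 21.7 CPM in KO. Hbb-bs, a haemoglobin gene, was at 0.693, 1.41 and 1.35 CPM in WT and 41.9, 10.9 and 329 CPM in KO. Of 6 neutrophil markers tested 2 were above 0 at that p (median 4.86), and of 10 B lineage markers 3 (median 1.02). Of 8 CD8 T and NK markers 1 was, Cd8a, and of 2 platelet markers none. The sums of these lists overlapped between the genotypes in Tconv. Neutrophil markers summed to 76.3 to 200 CPM in WT and 43.4 to 150 CPM in KO. This sum hides single markers, as Mmp9 alone had means of 138 CPM in WT and 58.2 CPM in KO Tconv. The reverse held for S100a8 (means of 0.105 CPM in WT and 10.7 CPM in KO), S100a9 (0.0347 and 9.35 CPM) and Chil3 (0 and 3.62 CPM). B lineage markers summed to 6.29 to 21.7 CPM and 7.86 to 21.3 CPM, and CD8 T and NK markers to 392 to 671 CPM and 315 to 815 CPM. Cd8a stood at 0.139, 0.107 and 0.055 CPM in WT and 1.34, 1.62 and 1.66 CPM in KO Tconv, where Cd4 stood at 1029 to 1119 CPM and 906 to 1013 CPM. Cd8b1, which encodes the other CD8 chain, was alike in both, with means of 6.05 CPM in WT and 6.59 CPM in KO Tconv. Without replicate 3 of KO Tconv the macrophage list had a median of 1.96 and 10 genes with such a p. How much these cells add to the interaction of other genes was not tested. The interaction of Slc15a2 was 8.57 without that library, and its KO Tconv levels were 9.11, 10.1 and 7.48 CPM in replicates 1 to 3.

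**Figure D5:**
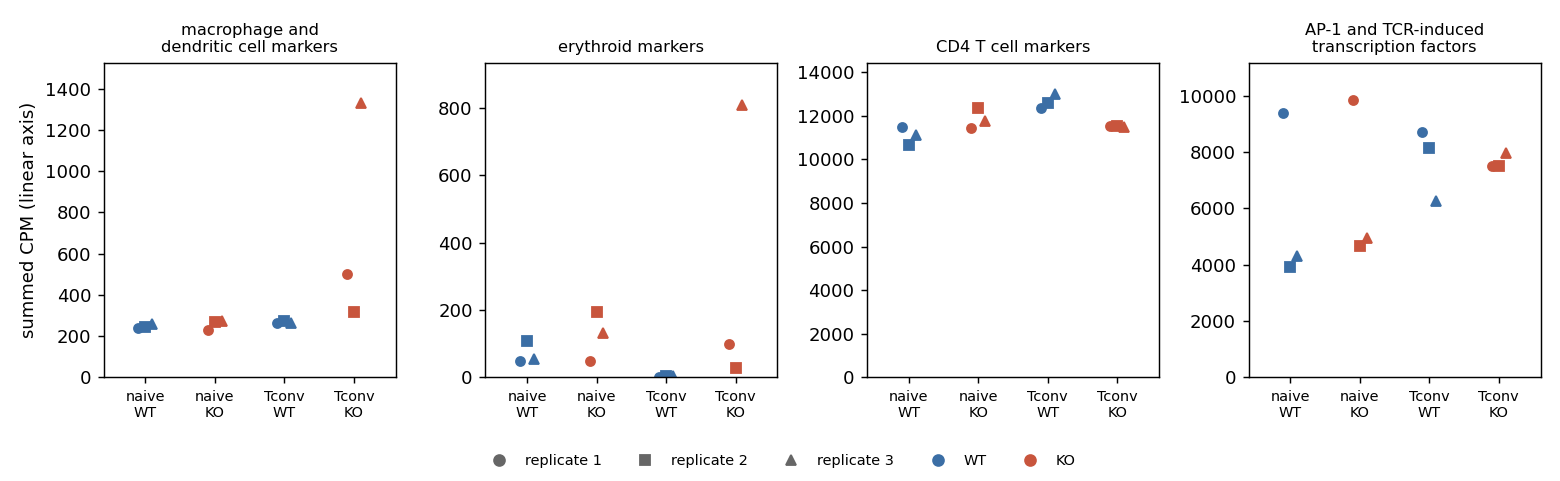
Summed CPM (linear axes) of 4 marker lists in each of the 12 libraries, by group and replicate. Macrophage, dendritic cell and erythroid markers are highest in replicate 3 of KO Tconv (1331 and 807 CPM), CD4 T cell markers are similar in all libraries (10660 to 12990 CPM), and AP-1 and T cell receptor-induced factors are higher in naive replicate 1 of both genotypes than in the other naive libraries.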

How the data were processed

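RNA of the naive cells purified by negative selection and of the sorted Tconv was amplified with a SMART-Seq v4 PLUS kit and sequenced. The authors trimmed reads with Trim Galore 0.6.7 and Cutadapt 3.4, aligned them with STAR 2.7.10a to GRCm39 with Ensembl annotation 107 and quantified genes with Salmon 1.5.2 in nf-core/rnaseq 3.9. They deposited estimated counts per gene, not normalized, which were rounded to whole numbers here. The study's own tests used DESeq2 1.38.3.

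The interaction and the comparisons within genotype or condition were fitted on the 12 libraries with edgeR 4.0.16 (TMM factors, filterByExpr, robust quasi-likelihood F test, no block) under limma 3.58.1 and R 4.3.3, with p-values adjusted by Benjamini-Hochberg over all genes tested. A call needed an adjusted p under 0.05 and an absolute log2 fold change above 1. The HP1g line, the difference between lines and the cells recovered with Treg were fitted on their own libraries. Named genes were the called ones, filled up to 20 in order of unadjusted p among genes with at least 5 CPM in a group (receptor segments, RIKEN clones, pseudogenes and unnamed genes left out), the 4 of lowest p in each list, Cbx5 and Trbv19. The values of 1 list member are not reported here. Genes named outside this rule are said to be so, or belong to a list. Members and lists were chosen with earlier results of these data known.

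Alternatives were DESeq2 1.42.0, RLE size factors, no low-count filter, no fold threshold, a replicate block, all 18 HP1a libraries and each library left out. Naive replicate 1 of both genotypes left out, and a block in naive cells only, were added after the data were seen. Same-numbered naive WT and KO libraries deviated together (correlations 0.469 to 0.844 over 3 pairs), whereas in Tconv they did not (−0.152 to 0.273). Naive libraries numbered 2 and 3 also deviated together across numbers (0.634 for KO 2 with WT 3 and 0.573 for KO 3 with WT 2). Replicate 1 alone thus stood out as a pair, and a pairing of numbers 2 and 3 was not shown. The fit was tested on simulated counts. Positions are from GENCODE for GRCm39, matched by gene ID.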

Additional observations from a re-analysis of the deposited data

Results flagged for a closer look

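In 2 genes the change on activation differed between groups by the test of the difference itself. Slc15a2 changed differently in HP1a KO and WT cells, with an interaction of 8.46 (edgeR adjusted p = 0.0032), and its level stayed at 7.48 to 10.1 CPM in KO Tconv where WT Tconv held 5 counts in 3 libraries. Without replicate 2 of WT Tconv the adjusted p was 0.0517.

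The long non-coding RNA gene Gm19951 (ENSMUSG00000113136, GRCm39 chr12:99609334-99613482, plus strand) differed between the lines, with an HP1a minus HP1g interaction of 4.64 (edgeR adjusted p = 0.00656). This comes from the HP1g line, where naive KO libraries held 32.5, 23.6 and 20.9 CPM against 2.91, 4.86 and 3.29 CPM in naive WT. Its Tconv libraries in that line held 4.06, 2.63 and 6.47 CPM in KO and 6.43, 8.09 and 6.64 CPM in WT, and its interaction there was −3.48 (adjusted p = 0.024). In the HP1a line it held 1.79 to 4.18 CPM in naive cells and 2.11 to 6.15 CPM in Tconv, with an interaction of 1.1 (adjusted p = 0.947).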

How the results depend on the processing

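The interaction of each of the 20 named genes kept its direction under every alternative run. Slc15a2 ended below the threshold in 1 of them, without replicate 2 of WT Tconv (adjusted p = 0.0517). Counts of calls moved more. For the HP1a interaction DESeq2 called 69 genes, the fit with no low-count filter 5, and the fits leaving out 1 library 0 (without replicate 2 of WT Tconv) to 6 (without replicate 2 of KO Tconv). For KO against WT in naive cells DESeq2 called 16 genes, no filter 3, all 18 libraries 0 and the fits without 1 library 1 to 2. In Tconv DESeq2 called 233, no filter 22 and the fits without 1 library up to 138 (without KO replicate 2). With no fold threshold activation took 8060 genes in WT and 7094 in KO. The HP1g interaction took 103 with DESeq2, 32 with no filter and 0 to 12 without 1 library. The difference between lines took 45, 5 and up to 3, and KO against WT with Treg 713, 177 and 0 to 115. Without replicate 1 of naive cells of both genotypes, the interaction took 3 genes (Slc15a2, ENSMUSG00000120777 and Trav6n-7), naive KO against WT 3 and Tconv KO against WT 9. The cause was not tested.

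With the replicate number as a block within each condition, the interaction took 19 genes and Tconv KO against WT 85, although Tconv libraries of 1 number do not deviate together. The block in naive cells only, where replicate 1 stood apart in both genotypes, gave 3 and 12, and a block over the 4 groups gave 10 in Tconv. With the block, the HP1g interaction took 1 gene, the difference between lines 0 and KO against WT with Treg 5. Slc15a2 was called in each blocked fit of the HP1a line.

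Sets of 3 libraries a group limit these counts: the median 95% interval of the interaction spanned 0.792 log2 units in genes of 5 CPM or more, and genes near the floor of 0.0476 to 0.081 CPM have fold changes that depend on the prior count.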

Other observations

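Some values belonged to no comparison above. Of 23 T cell receptor beta segments 5 had an interaction above 0 at an unadjusted p under 0.05 and none below (21.7%, against 4.89% of all genes). Their median was 0.40. Of 13 clustered protocadherin genes, a family expressed mainly in neurons, 3 were above and 1 below at that p (30.8%), with a median of 0.58. Both sets were looked at after their values were seen, and neither held a called gene. Cd163, a macrophage scavenger receptor gene, and Mef2c, a transcription factor gene of B and myeloid cells, had no count in any WT Tconv library and mean levels of 1.39 and 1.23 CPM in KO Tconv. The KO Tconv libraries ran from 0.165 to 3.26 CPM for Cd163 and from 0.118 to 2.5 CPM for Mef2c. Both genes were also counted in naive cells, with means of 2.09 CPM in WT and 1.61 CPM in KO for Cd163 and 0.582 and 0.618 CPM for Mef2c. With Treg, mean WT and KO levels were 0.127 and 0.614 CPM for Cd163 and 1.29 and 2.15 CPM for Mef2c.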
